A study of Homo sapiens with 6 samples.

Results

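Liver cancer stem and progenitor markers are genes used to pick out tumour cells with properties of the bipotent progenitors of the developing or injured liver. The 10 genes described here were taken as a named list: THY1, PROM1, EPCAM, CD24, ANPEP, ALDH1A1, SOX9, LGR5, GPC3 and BMI1, out of 58219 gene identifiers in the deposited counts. They were measured by stranded poly(A) RNA sequencing in SNU-387, an established line labelled as a pleomorphic, high-grade hepatocellular carcinoma. Cells that stably express a short hairpin RNA against YES1 (shYES1, 3 libraries) were compared with cells that stably express a non-target hairpin (shNT, 3 libraries), which asks how expression differs once this SRC-family tyrosine kinase is lowered. Whether each line is a pool or a single clone, and which hairpin sequences were used, is not given in the labels.

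Such markers fall into several kinds. THY1 (CD90), PROM1 (CD133), EPCAM, CD24 and ANPEP (CD13) are cell-surface proteins by which tumour cells are sorted. ALDH1A1 is an enzyme that oxidises retinaldehyde and is one source of the dehydrogenase activity used in sorting, SOX9 is a transcription factor of bile duct and progenitor cells, LGR5 is a receptor for R-spondins that raises WNT signalling, and BMI1 is a Polycomb subunit tied to self-renewal. GPC3 is a heparan sulfate proteoglycan of fetal liver that many hepatocellular carcinomas express again. Different liver tumours and lines carry different subsets of them.

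Gene reads numbered 11290889 to 18944148 in the shYES1 libraries and 12825919 to 16388822 in the shNT libraries. YES1 itself averaged 44.1 ± 1.70 CPM (counts per library total, with TMM factors) in shYES1 and 179 ± 1.65 CPM in shNT (SD, n = 3 each). The labels do not say whether the 3 libraries of a group came from separate cultures, so p-values measure the spread between these libraries, which may be technical. Of 15 hepatocyte markers, 11 were too low to test and 4, among them HNF4A and TTR, had no read in any library; the list summed to 21.0 to 23.7 CPM in shYES1 libraries and 23.1 to 25.7 CPM in shNT libraries. Of the 4 tested, TF had a log2 fold change of 0.46, FOXA2 of -0.92 and SERPINA1 of -0.18, and each passed with edgeR, but none of the 4 passed with DESeq2. FOXA2 averaged 0.518 CPM in shYES1, under the 0.675 CPM that the low-count filter asks for, and 1.04 CPM in shNT. Its place among tested genes thus rested more on shNT. ALB averaged 0.0285 ± 0.0494 CPM in shYES1 and 0.0211 ± 0.0366 CPM in shNT (SD, n = 3 each), so the liver label was not matched by transcripts of ALB, HNF4A or TTR. SERPINA1 was expressed, at 16.9 ± 1.17 CPM in shYES1 and 19.15 ± 1.34 CPM in shNT, and made up most of the summed level of the list. Across all genes the groups differed widely: 14239 genes were tested and 65.3% passed an edgeR adjusted p of 0.05, with 32.5% higher and 32.8% lower in shYES1. These shares are the background for each count of calls in a gene list.

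Against that background the 10 markers did not move as a group. THY1 was 4.0-fold higher in shYES1, CD24, ANPEP and ALDH1A1 were lower by 1.47-fold to 2.65-fold, and SOX9 and BMI1 did not pass the test, with log2 fold changes of -0.04 and 0.08. EPCAM was near the limit of detection, PROM1 and LGR5 had at most 3 reads in any library, and GPC3 had none. Of the 7 markers with enough reads to test, 1 was called higher and 3 lower in shYES1 (edgeR adjusted p under 0.05), and the groups did not overlap for 5, where 67.9% of all tested genes had groups that did not overlap. Of the 7 markers, 4 were thus called where 65.3% of all tested genes were, and against a minimum change of 1.2-fold the same 4 were called, where 36.4% of all tested genes were. The median log2 fold change of the 7 was -0.56 against -0.0047 over all tested genes. These are RNA amounts in bulk samples, in which fewer cells carrying a marker and less RNA per cell cannot be told apart.

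**Figure D1:**
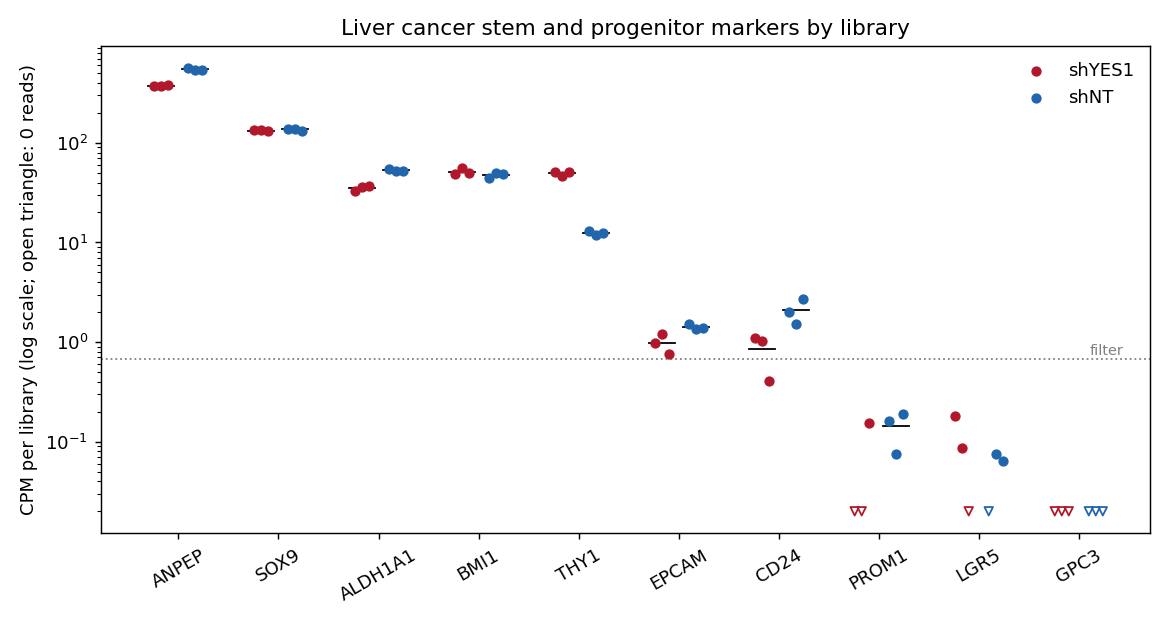
Normalised read count (CPM, log scale) of each marker in each library, shYES1 left of shNT, ordered by mean level per length; horizontal bars are group means, open triangles are libraries with 0 reads, and the dotted line is the level the low-count filter asks for. THY1 is the one marker whose shYES1 libraries all lie above the shNT libraries, and PROM1, LGR5 and GPC3 lie below the filter in every library.

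Compared per length (RPKM, CPM divided by the merged exon length in kilobases), the markers spanned a wide range of levels. ANPEP stood highest, at 76.4 RPKM in shYES1 and 113 RPKM in shNT, which placed its mean over the 6 libraries above 97.8% of tested genes. SOX9 followed at 33.8 RPKM in shYES1 and 34.7 RPKM in shNT, then ALDH1A1 at 12.4 RPKM in shYES1 and 18.7 RPKM in shNT, and BMI1 at 11.95 RPKM in shYES1 and 11.2 RPKM in shNT. The ranges of ALDH1A1 and BMI1 overlapped in shYES1 (11.6 to 12.9 RPKM for ALDH1A1 and 11.3 to 12.9 RPKM for BMI1) and were separate in shNT, where ALDH1A1 stood at 18.4 to 19.3 RPKM and BMI1 at 10.5 to 11.6 RPKM. THY1 came next, at 8.34 RPKM in shYES1 and 2.10 RPKM in shNT, below these 4 in both groups. EPCAM and CD24 were near 0.5 RPKM, above 9.73% and 9.60% of tested genes, and did not differ in level beyond their spread in either group.

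**Figure D2:**
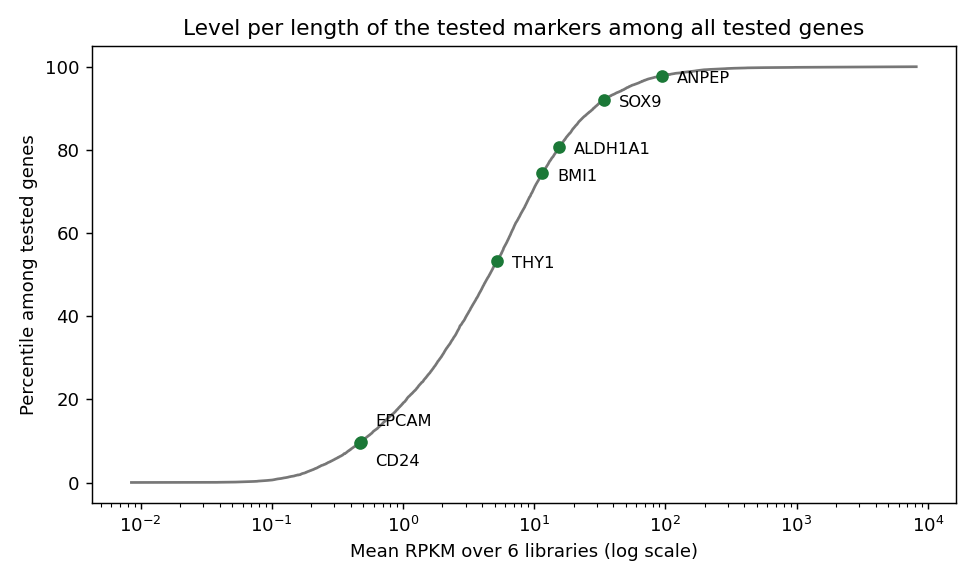
Percentile of each tested marker among all tested genes (vertical axis) against its mean RPKM over the 6 libraries (horizontal axis, log scale); the grey line is the cumulative distribution of all tested genes. ANPEP and SOX9 lie above 92.1% of tested genes or more, while EPCAM and CD24 lie together above fewer than 10%.

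THY1, a small GPI-anchored glycoprotein of the immunoglobulin superfamily found on mesenchymal cells and on a subset of liver tumour cells, had 51.1, 46.4 and 50.7 CPM in the 3 shYES1 libraries, against 13.0, 11.8 and 12.5 CPM in the 3 shNT libraries. Every shYES1 library was far above every shNT library, and the spread within each group was small. THY1 had a log2 fold change of 2.0 (SE 0.0652; edgeR quasi-likelihood test, adjusted p = 8.21e-30), a larger absolute change than that of 99.0% of tested genes. The gene (ENSG00000154096.13) lies on GRCh38 chromosome 11, 119417378 to 119424985, minus strand. Another annotated gene on the opposite strand covers 10.7% of its exon length, and the strand-specific counts used here keep the 2 apart. With unstranded counts the call and the direction were kept.

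Most other markers of mesenchymal cells did not follow THY1. Of 13 listed, THY1 included, 11 were tested, 5 rose, THY1 among them, and 5 fell in shYES1, with a median log2 fold change of 0.0049. PDGFRB, a receptor of stromal cells, averaged 26.8 ± 0.934 CPM in shYES1 and 10.6 ± 1.28 CPM in shNT (log2 fold change 1.33), and CDH2, which encodes N-cadherin, averaged 707 ± 9.81 CPM in shYES1 and 542 ± 3.54 CPM in shNT (0.38). COL1A2 (0.18) and COL1A1 (0.17) were called higher as well. The matrix proteoglycan genes DCN (-1.43) and LUM (-1.12), the adhesion molecule gene MCAM (-1.17) and VIM (-0.94) fell, all with n = 3 libraries per group. The summed level of the 13 genes was 8193 to 8305 CPM in shYES1 libraries and 7466 to 7819 CPM in shNT libraries, of which the collagen genes COL1A2 (4917 CPM in shYES1, 4337 CPM in shNT) and COL1A1 (1670 CPM in shYES1, 1481 CPM in shNT) made up most; ENG was low, at 0.284 ± 0.0712 CPM in shYES1 and 0.116 ± 0.0646 CPM in shNT. Of 5 endothelial genes 4 were tested, and 2 were higher and 1 lower in shYES1. TEK, an angiopoietin receptor, averaged 2.49 ± 0.436 CPM in shYES1 and 1.07 ± 0.231 CPM in shNT (1.16), and VWF, which encodes von Willebrand factor and was named after its values were seen, averaged 1.44 ± 0.218 CPM in shYES1 and 0.351 ± 0.149 CPM in shNT (2.09). In shNT, VWF was under the 0.675 CPM that the low-count filter asks for, so its place among tested genes rested on shYES1. PECAM1 averaged 11.2 ± 0.630 CPM in shYES1 and 13.9 ± 0.525 CPM in shNT (-0.30), with the list of 5 at 25.6 to 26.1 CPM in shYES1 and 25.6 to 27.1 CPM in shNT. Of 6 leukocyte genes only CD14 was high enough to test, at 38.3 ± 1.52 CPM in shYES1 and 44.0 ± 2.36 CPM in shNT (log2 fold change -0.20, a call lost with library size only), with PTPRC and LYZ under 1 CPM on average in both groups. CD68 was also too low to test, but 81.7% of its exon length is shared with another gene on the same strand, so its level is uncertain. Any part that these genes have in the change of THY1 was not tested.

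Over the 6 libraries, the genes whose centred log2 CPM profile was nearest to that of THY1 among 10587 genes of at least 5 CPM were MAP1A, PGM2L1 and SLC7A7. Their distances were 0.245, 0.275 and 0.276 log2 units. Their log2 fold changes were 2.02, 1.78 and 2.08. With only 2 groups such a ranking mostly orders genes by the size of that change.

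ANPEP, the membrane aminopeptidase that trims peptides at the cell surface, had 369, 370 and 378 CPM in shYES1 against 563, 541 and 544 CPM in shNT. The groups were separate and each was tight. Its log2 fold change was -0.56, with an SE of 0.0253 (edgeR adjusted p = 2.70e-24), or 1.47-fold lower in shYES1, in a gene with 4326 to 7395 reads per library in shYES1 and 6974 to 8580 in shNT. ANPEP (ENSG00000166825.13) lies on chromosome 15, 89784889 to 89815401, minus strand, and shares no exon with another gene. Its closest profiles over the 6 libraries were those of CDK6 (log2 fold change -0.56), NUFIP2 (-0.56) and POLR1D (-0.57), at distances of 0.0230, 0.0385 and 0.0411 log2 units.

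ANPEP belongs to the M1 family of zinc aminopeptidases, and its relatives changed in both directions. Over all tested genes 32.8% were called lower and 32.5% higher in shYES1. Of 12 family genes 10 were tested, and 7 fell, ANPEP included, while 2 rose and 1 did not pass (median log2 fold change -0.21). With library size only 5 were lower and 2 higher, and against a minimum change of 1.2-fold 3 were lower and 1 higher. Among them LNPEP, an aminopeptidase of endosomes and the cell surface, averaged 58.4 ± 2.68 CPM in shYES1 and 75.7 ± 3.66 CPM in shNT (-0.37). ERAP2, which trims peptides for antigen presentation, averaged 448 ± 13.5 CPM in shYES1 and 555 ± 2.23 CPM in shNT (-0.31). RNPEPL1 (0.40) and AOPEP (0.26) rose. ANPEP had the lowest log2 fold change of the family, and the differences between members were not tested.

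ALDH1A1, the cytosolic retinaldehyde dehydrogenase, had 33.2, 36.1 and 36.9 CPM in shYES1 against 55.0, 52.5 and 52.5 CPM in shNT. All shYES1 libraries lay below all shNT libraries. The log2 fold change of ALDH1A1 was -0.59, with an SE of 0.0506 (edgeR adjusted p = 2.72e-14), or 1.51-fold lower in shYES1. The gene (ENSG00000165092.12) lies on chromosome 9, 72900662 to 73080442, minus strand.

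Other aldehyde dehydrogenases went in both directions. Of 19 family genes, ALDH1A1 included, 15 were tested. Of these 4 rose, 6 fell, ALDH1A1 among them, and 5 did not pass (median -0.03). ALDH18A1, which makes a precursor of proline, averaged 60.5 ± 0.732 CPM in shYES1 and 152 ± 3.49 CPM in shNT (log2 fold change -1.33), and ALDH1A2, another retinaldehyde dehydrogenase, averaged 1.05 ± 0.151 CPM in shYES1 and 2.40 ± 0.209 CPM in shNT (-1.20). The mitochondrial folate enzyme gene ALDH1L2 fell as well (-0.75). ALDH9A1 averaged 118 ± 4.56 CPM in shYES1 and 67.3 ± 3.27 CPM in shNT (0.82), and ALDH3A2, which oxidises fatty aldehydes, averaged 176 ± 4.57 CPM in shYES1 and 114 ± 3.35 CPM in shNT (0.63). ALDH3B1 rose too (0.41). Per length, ALDH3B1 (39.5 to 40.3 RPKM in shYES1 and 29.3 to 30.7 RPKM in shNT) and ALDH18A1 (16.1 RPKM in shYES1 and 40.4 RPKM in shNT) were above ALDH1A1 in both groups. ALDH9A1 and ALDH3A2 were above it in shYES1, at 35.8 and 27.2 RPKM; in shNT ALDH9A1, at 19.2 to 21.1 RPKM, overlapped ALDH1A1, and ALDH3A2, at 17.1 to 18.1 RPKM, was below it. The summed level of the family was 822 to 840 CPM in shYES1 and 769 to 790 CPM in shNT, higher in shYES1 although ALDH1A1 was lower.

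CD24, a short and heavily glycosylated GPI-anchored protein, was scarce: 18, 12 and 8 reads in shYES1 against 25, 20 and 43 reads in shNT. On the normalised scale that was 1.1, 1.03 and 0.409 CPM in shYES1 against 2.02, 1.51 and 2.72 CPM in shNT, with no overlap between groups. CD24 had a log2 fold change of -1.40, with an SE of 0.291 (edgeR adjusted p = 4.17e-05), or 2.65-fold lower in shYES1, with a 95% interval of -1.99 to -0.82. Its size rested in part on shYES1 library 3 and shNT library 3: without shYES1 library 3 the log2 fold change was -0.99 (edgeR adjusted p = 0.00496), and without shNT library 3 it was -1.13 (0.00342). Over all settings run, its edgeR, DESeq2 or limma adjusted p was 3.19e-06 to 0.00496. CD24 reached the level the filter asks for in all 3 shNT and in 2 of the 3 shYES1 libraries, so its place among tested genes rested more on shNT. Of its 50-base words, 5.26% also occur in annotated transcripts of other genes, and reads from such stretches or from closer copies elsewhere are not counted, so its level is uncertain. The gene (ENSG00000272398.5) lies on chromosome 6, 106969831 to 106975627, minus strand.

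EPCAM, the epithelial adhesion protein of bile duct and progenitor cells, had 16, 14 and 15 reads in shYES1 against 19, 18 and 22 reads in shNT, or 0.974, 1.2 and 0.766 CPM in shYES1 against 1.54, 1.36 and 1.39 CPM in shNT. The groups did not overlap, but the difference missed the threshold (log2 fold change -0.59, SE 0.277, edgeR adjusted p = 0.0582). Its 95% interval ran from -1.15 to -0.03, so these depths leave its size poorly known. Without shYES1 library 2 the log2 fold change was -0.72 and passed (edgeR adjusted p = 0.0426). Its adjusted p over all settings and tools ran from 0.0295 to 0.268. EPCAM (ENSG00000119888.10) lies on chromosome 2, 47345158 to 47387601, plus strand.

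SOX9, the transcription factor, had 134, 134 and 130 CPM in shYES1 against 138, 139 and 133 CPM in shNT. The groups overlapped, at 1569 to 2551 reads per library in shYES1 and 1706 to 2093 in shNT, and the log2 fold change was -0.04 (95% interval -0.10 to 0.03, edgeR adjusted p = 0.301). Its value depended on scaling: with library size only it was 0.0582, and scaled on genes whose 3' UTR lacks CCTTTC it was -0.13 and passed (edgeR adjusted p = 0.000641). The median of all tested genes was 0.0921 with library size only and -0.094 with the CCTTTC scaling, which was chosen after seeing the data. SOX9 (ENSG00000125398.5) lies on chromosome 17, 72121020 to 72126420, plus strand.

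Genes of bile duct type did not show 1 direction. Of 10 listed, SOX9 and EPCAM included, 6 were tested, 1 rose and 2 fell. When scaled on genes without CCTTTC 1 was higher and 4 lower, the added calls being SOX9 and EPCAM. The tight junction gene CLDN4 averaged 88.8 ± 1.38 CPM in shYES1 and 60.2 ± 2.06 CPM in shNT (log2 fold change 0.56). The transcription factor gene SOX4 averaged 30.01 ± 3.33 CPM in shYES1 and 44.3 ± 1.13 CPM in shNT (-0.55), and SPP1, which encodes osteopontin, averaged 2.87 ± 0.589 CPM in shYES1 and 4.84 ± 0.552 CPM in shNT (-0.77). The keratin gene KRT19, a defining biliary marker, averaged 0.0341 ± 0.0590 CPM in shYES1 and had no reads in shNT. KRT7, the other keratin gene of the list, was expressed, at 24.0 ± 0.742 CPM in shYES1 and 24.4 ± 1.57 CPM in shNT. It did not pass (log2 fold change -0.02).

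BMI1, a RING-finger subunit of Polycomb repressive complex 1, had 48.3, 55.4 and 49.9 CPM in shYES1 against 44.8, 49.7 and 49.2 CPM in shNT. The groups overlapped, and the log2 fold change was 0.08 (95% interval -0.02 to 0.18, edgeR adjusted p = 0.168). That value depended on scaling: with library size only it was 0.18 and passed (edgeR adjusted p = 0.00246), and when libraries were scaled on genes whose 3' UTR lacks CCTTTC it was -0.0096 (edgeR adjusted p = 0.883). Under every other setting run it did not pass. BMI1 (ENSG00000168283.13) lies on chromosome 10, 22321211 to 22331484, plus strand, and the annotated read-through gene COMMD3-BMI1 covers 23.3% of its exon length on the same strand. Reads there can be lost as ambiguous, and COMMD3-BMI1 itself had no counted read, so the level of BMI1 is uncertain.

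All 16 listed genes of Polycomb repressive complex 1 were tested, and 4 rose, 4 fell and 8 did not pass (median log2 fold change -0.01). The split moved with scaling: 7 were higher and 2 lower when only library size was used, and 2 were higher and 8 lower under scaling to genes that lack CCTTTC. PCGF5, a paralogue of BMI1 that forms a variant complex, averaged 37.3 ± 0.712 CPM in shYES1 and 81.1 ± 1.35 CPM in shNT (-1.12), and PHC2, a polyhomeotic subunit, averaged 130 ± 0.810 CPM in shYES1 and 195 ± 5.79 CPM in shNT (-0.59). CBX2 also fell (-0.31). CBX6, a chromodomain subunit, averaged 76.3 ± 5.51 CPM in shYES1 and 57.3 ± 3.67 CPM in shNT (0.43), and PCGF1 (0.31) and PHC1 (0.20) rose. With DESeq2 2 were higher and 3 lower, the calls of CBX2 and PHC1 among those lost.

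**Figure D3:**
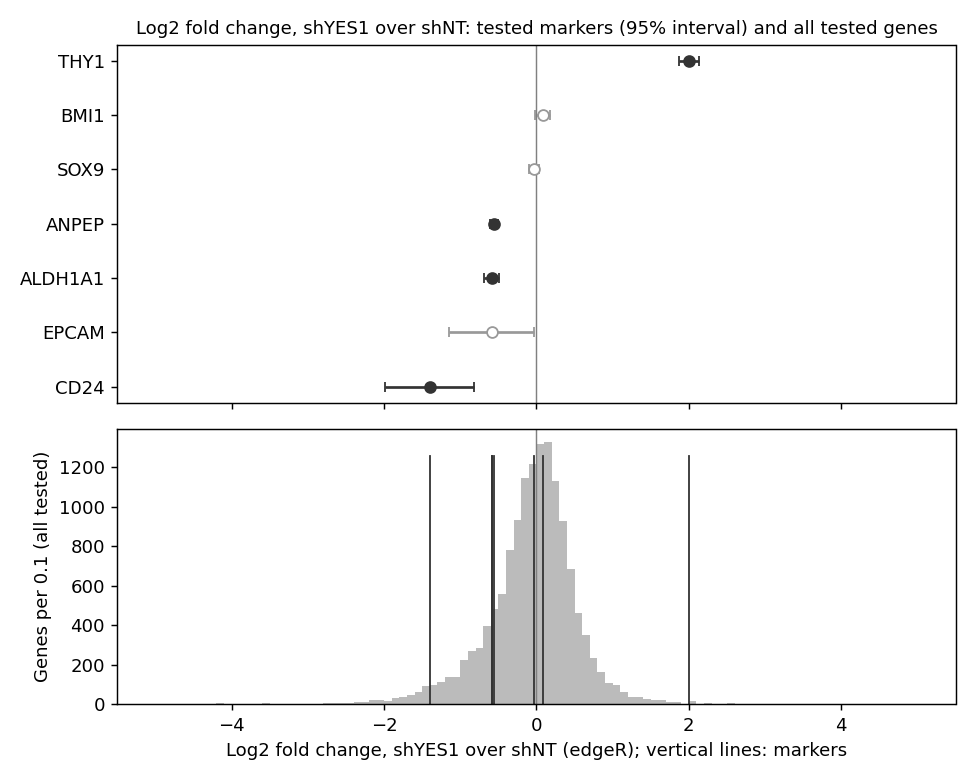
Upper panel: log2 fold change of shYES1 over shNT for the 7 tested markers with its 95% interval, filled where the edgeR adjusted p was under 0.05. Lower panel: the same quantity for all tested genes, in bins of 0.1, with the markers as vertical lines (values beyond 5 in either direction are in the end bins); THY1 at 2.0 and CD24 at -1.40 lie in the tails, and SOX9 and BMI1 beside 0.

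PROM1, the pentaspan membrane protein known as CD133, had 0, 0 and 3 reads in shYES1 against 2, 1 and 3 reads in shNT. LGR5 had 3, 1 and 0 reads in shYES1 against 0, 1 and 1 reads in shNT. Summed over a group, PROM1 had 3 reads in shYES1 (exact Poisson 95% interval 0.619 to 8.77) and 6 in shNT (2.20 to 13.1), and LGR5 had 4 reads in shYES1 (1.09 to 10.2) and 2 in shNT (0.242 to 7.22), intervals that overlap and cover counting error only. No difference was detectable at this depth for either gene. GPC3 had no read in any of the 6 libraries, which allows up to 0.158 to 0.266 CPM in a shYES1 library and 0.183 to 0.234 CPM in a shNT library at 3 reads. PROM1 (chromosome 4, 15963076 to 16084378), LGR5 (chromosome 12, 71439770 to 71586310) and GPC3 (chromosome X, 133535745 to 133985895) were therefore not tested with the low-count filter in place.

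Although LGR5 was barely detected, parts of its pathway were expressed. LGR4, its close relative and also an R-spondin receptor, averaged 40.4 ± 0.939 CPM in shYES1 and 34.3 ± 1.32 CPM in shNT (log2 fold change 0.23). Of the 14 genes in the list 10 were tested, with 3 higher, 3 lower and 4 that did not pass (4 higher and 2 lower with library size only). GLUL, which encodes glutamine synthetase and responds to beta-catenin in liver, averaged 167 ± 2.87 CPM in shYES1 and 125 ± 4.21 CPM in shNT (0.41). RNF43, a ligase that removes WNT receptors, rose (0.39), but 57.6% of its exon length is shared with another gene on the same strand and its value is uncertain. The transcription factor genes TBX3, with 20.6 ± 0.877 CPM in shYES1 and 33.8 ± 0.933 CPM in shNT (-0.72), and SP5 (-0.57) fell, as did ZNRF3 (-0.20), the relative of RNF43, whose call was lost with library size only and with DESeq2.

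GPC3 was likewise absent while other glypicans were present. GPC1 averaged 381 ± 5.38 CPM in shYES1 and 229 ± 3.60 CPM in shNT (log2 fold change 0.74), GPC6 averaged 51.1 ± 1.56 CPM in shYES1 and 69.8 ± 0.542 CPM in shNT (-0.45), and the other 4 of the 6 glypicans, GPC3 among them, were too low to test. Of 9 oncofetal liver genes only the RNA-binding protein genes IGF2BP3 (0.40) and IGF2BP1 (-0.21, a call lost with library size only) reached the filter and passed, while AFP, the classical serum marker, averaged 0.469 ± 0.186 CPM in shYES1 and 0.318 ± 0.167 CPM in shNT. IGF2 was also below the filter, but 73.7% of its exon length is shared with another annotated entry on the same strand, so its level is uncertain.

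Among 20 other genes used as liver cancer stem or progenitor markers, 9 were tested, and 2 rose, 3 fell and 4 did not pass (median log2 fold change -0.24). The split was 3 and 3 with library size only, and 1 and 5 when scaled on genes without CCTTTC. Against a minimum change of 1.2-fold it was 1 and 1. CD44, the hyaluronan receptor, averaged 395 ± 10.9 CPM in shYES1 and 855 ± 15.9 CPM in shNT (-1.12), the most abundant of the list in both groups. CD47, which signals to phagocytes, averaged 186 ± 4.98 CPM in shYES1 and 221 ± 4.08 CPM in shNT (-0.24), and SOX12 fell by a like amount (-0.24). KLF4, one of the reprogramming factors, averaged 18.2 ± 0.584 CPM in shYES1 and 10.3 ± 0.609 CPM in shNT (0.81). NCAM1, a neural adhesion molecule also found on progenitor cells, rose slightly (0.10). Its call was lost under several settings, DESeq2 and scaling on genes without CCTTTC among them. NANOG, KIT, LIN28B and DLK1 had no read in any library.

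**Figure D4:**
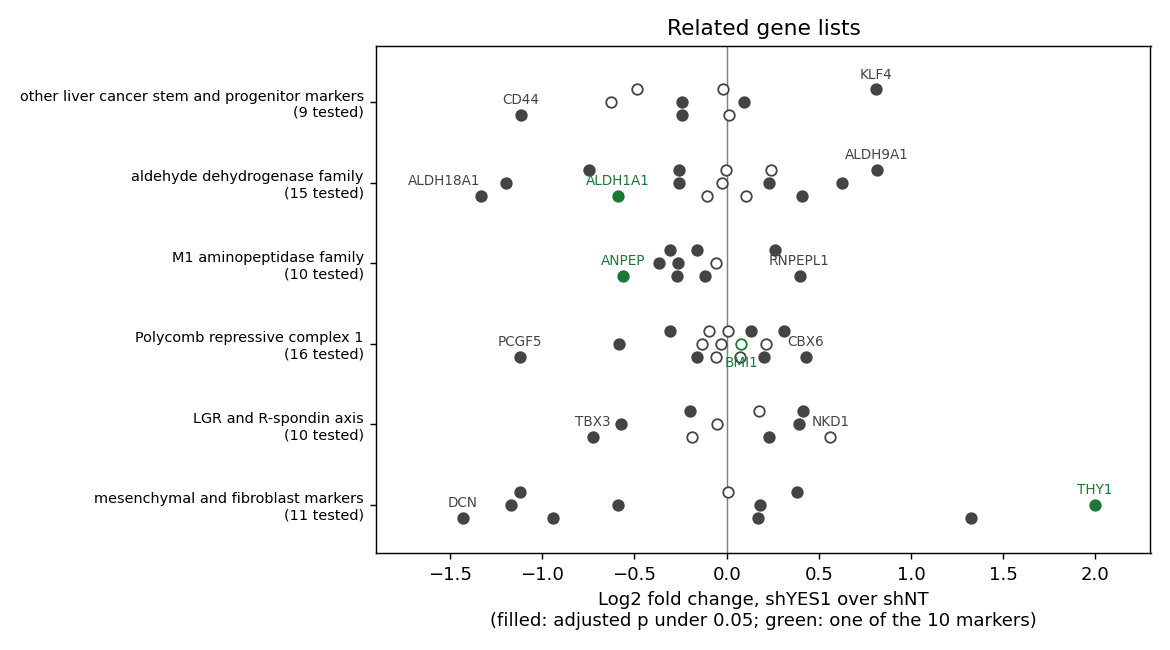
Log2 fold change of shYES1 over shNT for the tested genes of 6 related lists (rows; vertical offsets within a row only separate points), filled where the edgeR adjusted p was under 0.05 and green for the 10 markers. ANPEP is the lowest of its family, ALDH1A1 and BMI1 lie inside the range of theirs, and THY1 is the highest of the mesenchymal list.

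An earlier scan of these same data found that genes with CCTTTC in the 3' UTR were lower in shYES1, so the longest annotated 3' UTR of each marker was searched for these 6 letters on the transcript strand. The stretch is shown for the 3 tested markers that hold it once, with the 6 letters in capitals and the flanking transcript in lower case, 5′ to 3′, from GENCODE release 29 transcripts on GRCh38 (base 1 is the first base of the 3' UTR).
ANPEP: taccctctttcaCCTTTCcctaaagaccct
SOX9: ccgtgaaacttaCCTTTCcctttttctttc
EPCAM: gattgaaagctgCCTTTCtatttacttgag

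The 6 letters start at base 359 of 460 in ANPEP, base 1958 of 2033 in SOX9 and base 336 of 421 in EPCAM. They are absent from the 3' UTRs of THY1 (2030 bases), BMI1 (1942), CD24 (1830) and ALDH1A1 (546). Over all tested genes with a 3' UTR of at least 50 bases, 45.6% of 11920 hold them, and the median of their log2 fold changes is -0.08, where the median of genes without them is 0.09. Genes that hold them also have longer 3' UTRs, with a median of 2485 bases against 816 bases. Of the 3 markers called lower, ANPEP holds the letters and CD24 and ALDH1A1 do not, and SOX9 holds them with a log2 fold change of -0.04. A match is a description of the letters, and its part in any marker's change was not tested. Scaled on genes without the letters, the log2 fold changes of THY1, ANPEP, ALDH1A1 and CD24 were 1.91, -0.65, -0.68 and -1.49, each still called, and those of SOX9 (-0.13, edgeR adjusted p = 0.000641) and EPCAM (-0.68, 0.0295) passed as well. Of the 10 markers this scaling called 1 higher and 5 lower, and library size only called 2 higher and 3 lower. Over all genes the calls were 3580 up and 5671 down with this scaling, 5799 up and 3762 down by library size alone, and 4623 up and 4676 down with TMM.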

How the data were processed

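The 3 shYES1 and 3 shNT libraries were grouped by their titles. Each deposited file holds raw read counts per gene, unstranded and by strand. STAR 2.5.1b, Trimmomatic 0.35, CASAVA 1.8.2 and build GRCh38 are named in the submitters' processing notes, and per the labels' protocols the libraries were KAPA stranded poly(A). The labels name no annotation release. Reverse-strand counts were used, since 93.5% to 94.0% of stranded gene reads fell there; 4 entries that name no gene, 19.8% to 20.3% of reads, were left out. Of 58219 identifiers 57392 were paired with symbols, and lengths, coordinates and overlaps come from GENCODE release 29.

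Tests used edgeR 4.0.16 in R 4.3.3 (filterByExpr at a minimum count of 10 and a total of 15, TMM, robust quasi-likelihood test), adjusted by Benjamini-Hochberg over 14239 genes, called at 0.05. The steps were tested on simulated data in which few genes changed, as many up as down. Changes as wide as those seen here, and the choice of scaling, were not tested that way. CPM and RPKM use TMM-scaled library sizes. The standard error is the log2 fold change divided by the square root of F. Alternatives used DESeq2 1.42.0 and limma 3.58.1. Within-group pairs of libraries differed by more than sampling noise (chi-square per degree of freedom 1.15 to 2.19). The members and the 12 other lists were chosen with earlier results of these data known. Named are YES1, the 10 members and, per list, up to 3 rises and 3 falls called at a mean of at least 1 CPM, or the 3 most expressed where fewer than 2 passed; other names were chosen after their values were seen. Not every gene the rule names is described.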

Additional observations from a re-analysis of the deposited data

Results flagged for a closer look

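THY1 also had reads on the strand that the comparisons did not use: 19, 13 and 15 in the shYES1 libraries, against 2, 2 and 2 in the shNT libraries. That is a mean of 1.01 CPM in shYES1 and 0.147 CPM in shNT. Relative to the THY1 reads on the strand used, it is 1.51% to 2.39% in shYES1 and 1.02% to 1.28% in shNT. A gene annotated on the opposite strand covers 10.7% of the THY1 exons. The part of that gene, or of reads assigned to the wrong strand, was not tested. Groups of 3 libraries are too small to look for a library that stands apart from its group.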

How the results depend on the processing

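For the tested markers and YES1, the log2 fold change kept its direction and side of the threshold under most settings, and every exception is given here. Over all genes, 9299 were called, 5185 against 1.2-fold (36.4%) and 7953 to 9561 under the other settings. The calls of THY1, ANPEP, ALDH1A1 and CD24 held under every setting run: RLE scaling, library size only, DESeq2, limma-voom, no low-count filter, 1 CPM in 3 libraries, a test against 1.2-fold, unstranded counts, the sample number as a block, each library left out, and scaling on genes without CCTTTC, which was chosen after seeing the data. With library size only, SOX9 turned to 0.0582 (median of all genes 0.0921) and BMI1 passed at 0.18. Scaled on genes without CCTTTC (median of all genes -0.094), BMI1 turned to -0.0096, and SOX9 at -0.13 and EPCAM at -0.68 passed. With a library left out, EPCAM ranged from -0.72 to -0.41, and it passed without shYES1 library 2 (edgeR adjusted p = 0.0426). With the sample number as a block, 9297 genes and the same number of markers, 4, were called, and CD24 was -1.43. Deviations of same-numbered libraries correlated at -0.0050, 0.0274 and 0.00062 over genes, against -0.0212 to 0.0194 for pairs of unlike number. With 3 libraries per group such values cannot exclude a shared culture or day. Among the other named genes, 47 values lost a call under another setting and 0 turned, mostly small changes such as SERPINA1, ZNRF3, PHC1 and TF. Counts of calls in the other lists moved by over 1.5 times in 16 cases, 7 of them against 1.2-fold; no hepatocyte call held with DESeq2, and the 1 leukocyte call was lost with library size only and against 1.2-fold. Depth limits EPCAM, CD24, PROM1, LGR5 and GPC3, each under 50 reads per library. For the last 3 no fold change was fitted with the low-count filter in place. With no filter PROM1 had a log2 fold change of -1.10 (edgeR adjusted p = 0.524) and LGR5 of 0.72 (0.724), from at most 3 reads in any library.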
